A study of Mus musculus with 6 samples.

Results

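Nos2, Slc7a2, Odc1 and Hmox1, 4 of the 32285 genes in the deposited count tables, act in nitric oxide synthesis, arginine uptake, polyamine synthesis and heme breakdown, and were followed through the myeloid cells of B16-F10 melanomas treated with αPD-1 or with αPD-1 + corin. The genes were taken by symbol, and each of the 4 was found. The series holds 6 single-cell RNA-Seq libraries of CD45+ cells, 3 from αPD-1–treated and 3 from αPD-1 + corin–treated tumors. B16-F10 is a mouse melanoma cell line that was grafted into female C57BL/6 mice aged 6 to 10 weeks, and both groups were given 150 μg of the antibody 3 times per week from day 7. Corin, which inhibits the CoREST corepressor complex, was injected daily into the peritoneum at 200 μg from day 6 in the combination group only. The αPD-1 group had no corin, and the labels do not say whether its mice received the vehicle of 5% DMSO. Each arm had 10 mice, the labels do not say which animals gave the libraries or whether animals were pooled, and p-values therefore measure only the spread between these libraries. Tumors were dissociated and frozen, and CD45+ cells were bead-selected after thawing.

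Inducible nitric oxide synthase (Nos2) converts arginine to citrulline and nitric oxide. Slc7a2 is a membrane transporter that brings arginine and other cationic amino acids into the cell, and ornithine decarboxylase (Odc1) uses ornithine to make putrescine, the entry step of polyamine synthesis. Heme oxygenase 1 (Hmox1) breaks heme down to biliverdin, carbon monoxide and iron. In macrophages Nos2 is a textbook marker of classical activation, and Hmox1 is induced by heme and by oxidative stress. All values below are of mRNA and not of enzyme activity.

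In GRCm39, each gene is protein-coding and part of the GENCODE vM39 annotation. Nos2 (ENSMUSG00000020826) lies on chromosome 11 from 78811613 to 78851080, and Odc1 (ENSMUSG00000011179) on chromosome 12 from 17594383 to 17601507. Slc7a2 (ENSMUSG00000031596) and Hmox1 (ENSMUSG00000005413) are both on chromosome 8, from 41315431 to 41375345 and from 75820241 to 75827217, and all 4 genes are on the plus strand. Counts covered whole gene models and were not split by exon.

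The libraries held between 52281422 and 84276739 UMIs in 6433 to 13228 barcodes, and 28865 cells were kept after filters and doublet removal, 15629 of them in clusters with myeloid markers. Cluster names rest on marker lists, and each means that the cluster resembles that type. Lyve1 macrophages (872 cells) had Lyve1 at 1358 CPM, that is UMIs per 1000000 UMIs of the state, Ppbp macrophages (2765 cells) had Ppbp at 779.8 CPM, and Mmp12 macrophages (1292 cells) had Mmp12 at 712 CPM, in each case above the other states. A Ppbp UMI was found in only 19.4% of Ppbp macrophages, and an Mmp12 UMI in 26.5% of Mmp12 macrophages. The Ppbp cluster also met 10 Lyve1 macrophage markers, against 6 of its own 10. Other C1q macrophages (3713 cells) had C1qa at 1685 CPM, below Lyve1 macrophages (3748 CPM) and Ppbp macrophages (2396 CPM). Monocytes (1228 cells) had Ly6c2 at 969.9 CPM, and neutrophils (2391 cells) had S100a9 at 15255 CPM. Dendritic cells (DCs, 2138 cells) joined a cluster led by Cst3 and a smaller one led by Siglech. A further 1230 myeloid cells of 2 clusters got no name and count only in the myeloid total. These genes and their pathway genes were kept out of the clustering. Libraries shared at most 32 barcodes per pair (0.457% of the smaller). Lyve1 macrophages numbered 16, 24 and 13 in the αPD-1 libraries and 719, 61 and 39 in the αPD-1 + corin libraries, and neutrophils 22, 17 and 20 against 905, 1317 and 110, so that the αPD-1 levels of these states rest on few cells.

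The make-up of the myeloid cells differed between the groups, which matters for any value taken over all of them. Ppbp macrophages made up 8.87%, 9.41% and 7.69% of myeloid cells in the αPD-1 libraries and 27.8%, 15.2% and 10.1% in the αPD-1 + corin libraries, without overlap. Lyve1 macrophages (1.25% ± 0.433 against 5.14% ± 5.60; SD, n = 3 each) and neutrophils (1.39% ± 0.159 against 21.1% ± 20.2) also made up more of the myeloid cells in each αPD-1 + corin library than in any αPD-1 library, and monocytes less (17.2% ± 3.55 against 5.53% ± 5.21). The αPD-1 + corin libraries differed widely, with 11.6%, 2.03% and 1.79% Lyve1 macrophages, 14.6%, 43.8% and 5.05% neutrophils, and 2.92%, 2.13% and 11.5% monocytes. Each of these 4 shares had a two-sided exact permutation p of 0.1, the smallest that 3 libraries against 3 allow, and an adjusted p of 0.175 over 7 states. The shares of Mmp12 macrophages, other C1q macrophages and DCs overlapped (exact permutation p = 0.9, 0.3 and 0.2). Fewer cells of a state and fewer cells recovered by dissociation and selection cannot be told apart here.

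**Figure D1:**
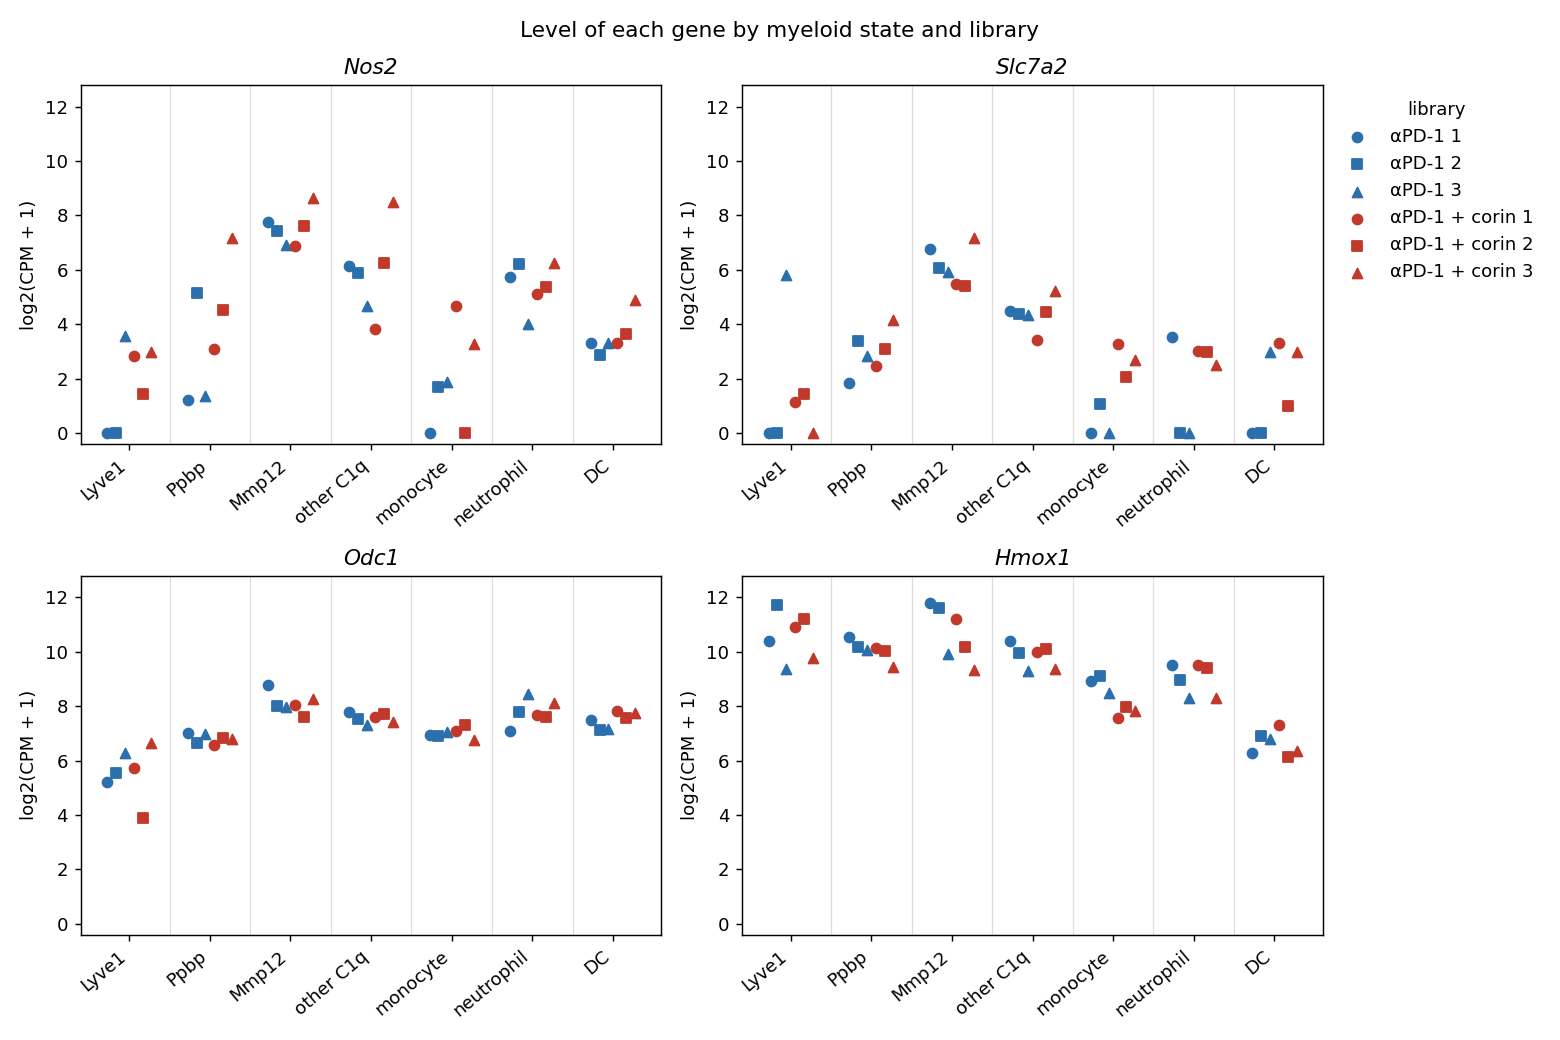
Level of each gene as log2(CPM + 1) in the 7 named myeloid states (x axis), with 1 point per library, blue for αPD-1 and red for αPD-1 + corin, and the symbol giving the replicate. Nos2 is highest in Mmp12 macrophages in each library, Odc1 is lowest in Lyve1 macrophages on average, and the red Hmox1 points of monocytes (188 to 249 CPM) lie below the blue ones (359 to 555 CPM).

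Among the named myeloid states, Nos2 was highest in Mmp12 macrophages in all 6 libraries. It was at 215, 171 and 118 CPM there in the αPD-1 libraries and 117, 195 and 394 CPM in the αPD-1 + corin libraries. An unnamed cluster lay above them in αPD-1 replicate 1 (233 CPM) and αPD-1 + corin replicate 3 (439 CPM). Of the named states, other C1q macrophages had the next highest mean in both groups, with 69.4, 57.4 and 24.6 CPM against 13.1, 75.9 and 358 CPM. In Mmp12 and other C1q macrophages the highest value was that of αPD-1 + corin replicate 3, and the lowest was that of replicate 1 of the same group. Ppbp macrophages gave 1.31, 34.4 and 1.54 CPM in the αPD-1 libraries and 7.55, 21.9 and 144 CPM in the αPD-1 + corin libraries, with the same replicate on top. Neutrophils held 52.6, 72.8 and 15.1 CPM, from 5, 5 and 1 UMIs, against 33.3, 40.4 and 75.0 CPM.

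Nos2 was scarce in the remaining states. Monocytes held 0 to 3 UMIs in the αPD-1 libraries and 14, 0 and 8 UMIs in the αPD-1 + corin libraries, and Lyve1 macrophages held 0, 0 and 1 UMIs against 26, 1 and 2. With 3 UMIs as the limit that a count of 0 allows, Nos2 in Lyve1 macrophages of αPD-1 replicates 1 and 2 could be as high as 21.8 and 12.6 CPM. DCs held 8.82, 6.33 and 8.99 CPM against 8.96, 11.4 and 28.9 CPM. Lymphocytes were read as a comparison level. Whether their UMIs are RNA from other cells or their own was not tested, and they differed among themselves. NK cells held between 0 and 10.5 CPM over the 6 libraries, and T cells 8.16, 5.89 and 4.91 CPM in the αPD-1 libraries and 17.7, 34.7 and 56.1 CPM in the αPD-1 + corin libraries, without overlap, as for 14% of the 8631 genes that averaged at least 10 CPM in T cells and lay higher. B cells held 4.15 to 8.59 CPM against 0 to 64.2 CPM, the latter from at most 4 UMIs in a library. DCs and Lyve1 macrophages lay below T cells in each αPD-1 + corin library, Ppbp macrophages in replicates 1 and 2, monocytes in replicates 2 and 3 (0 and 8.69 CPM) and other C1q macrophages in replicate 1, so that Nos2 in these cells is not told apart from this level there. The same holds for Ppbp macrophages of αPD-1 replicates 1 and 3, which held 1 Nos2 UMI each.

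In the edgeR quasi-likelihood test on UMI sums per library, Nos2 did not pass the threshold of 0.05 on the adjusted p in any of the states in which it could be tested. The log2 fold change of αPD-1 + corin against αPD-1 was 1.64 in other C1q macrophages (SE 0.80, edgeR adjusted p = 0.560), 1.88 in Ppbp macrophages (SE 1.22, edgeR adjusted p = 0.489), 0.0054 in neutrophils (SE 0.59, edgeR adjusted p = 0.996), 0.43 in Mmp12 macrophages (SE 0.41, edgeR adjusted p = 0.764), 1.05 in DCs (SE 0.46, edgeR adjusted p = 0.446) and 1.27 in all myeloid cells (SE 0.75, edgeR adjusted p = 0.429). Without αPD-1 + corin replicate 3 the values were -0.27 in other C1q macrophages, -0.15 in Mmp12 macrophages and -0.013 in all myeloid cells (edgeR adjusted p = 0.830, 0.858 and 0.990), and -0.018 in Ppbp macrophages and 0.40 in DCs (edgeR adjusted p = 0.992 and 0.650). Counts of Nos2 were too low for the test in monocytes and Lyve1 macrophages. Other settings gave calls. With no filter on low counts Nos2 passed in Ppbp and other C1q macrophages, monocytes and DCs in edgeR. In monocytes, where the groups held 5 and 22 Nos2 UMIs as first sorted, it also passed in the 5 alternatives that changed the cells so that it could be tested, among them resolutions 0.4 and 1.2. Its log2 fold change there was between 2.92 and 3.51 (edgeR adjusted p between 0.0129 and 0.0238), at levels that T cells also reached, and beside higher marker sums of other states given with Hmox1 in monocytes, whose part was not tested. The difference of the Nos2 effect between states did not pass for any of 21 pairs, some of them with states of very low counts (smallest edgeR adjusted p = 0.658, no unadjusted p under 0.05).

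Over all myeloid cells Nos2 was at 58.5, 40.01 and 19.6 CPM in the αPD-1 libraries and at 22.8, 47.0 and 195 CPM in the αPD-1 + corin libraries, and the states that supplied these UMIs were not the same in each library. Mmp12 macrophages held 28.4%, 18.6% and 46.2% of the myeloid Nos2 UMIs in the αPD-1 libraries and 47.2%, 28.9% and 9.49% in the αPD-1 + corin libraries. Other C1q macrophages held 35.7%, 53.5% and 34.2% against 8.77%, 19.2% and 56.4%. In αPD-1 + corin replicates 1 and 2, where neutrophils were abundant, these held 23.3% and 35.1%, and in the αPD-1 libraries 0.855% to 1.66%. The unnamed clusters held 31.1%, 11.96% and 3.42% in the αPD-1 libraries and 0.373%, 5.48% and 19.1% in the αPD-1 + corin libraries, which was more than Mmp12 macrophages held in αPD-1 replicate 1 and αPD-1 + corin replicate 3.

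**Figure D2:**
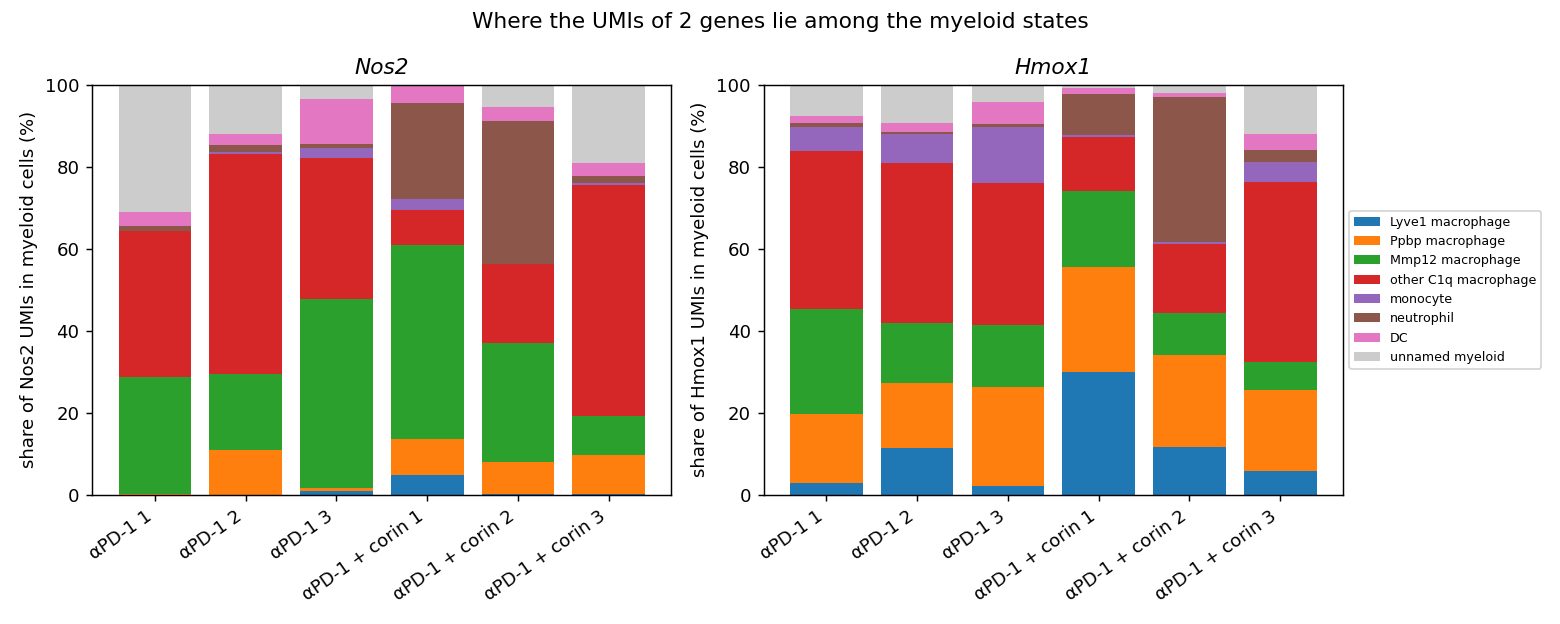
Share of the Nos2 and Hmox1 UMIs of all myeloid cells (y axis, %) that lies in each state, as stacked bars with 1 bar per library. The neutrophil part reaches 23.3% and 35.1% of Nos2 and 10.0% and 35.2% of Hmox1 in αPD-1 + corin replicates 1 and 2, and is at most 3.06% in the other 4 libraries.

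The share of cells with a UMI was read in cells thinned to 1000 UMIs, so that depth is equal by construction. Among all myeloid cells a UMI of Nos2 was found in 4.46%, 3.12% and 1.26% in the αPD-1 libraries and in 2.26%, 3.37% and 10.1% in the αPD-1 + corin libraries (exact permutation p = 0.6). The same share was at most 0.649% in NK cells, 0.375% to 0.572% and 1.55% to 3.34% in T cells of the 2 groups, and at most 1.64% in B cells. In Mmp12 macrophages the shares were 18.1%, 13.2% and 7.34% against 7.78%, 16% and 19.8% (exact permutation p = 0.7). In other C1q macrophages they were 5.79%, 4.78% and 1.95% against 1.42%, 7.16% and 17.3% (exact permutation p = 0.5), and the lowest of these, that of αPD-1 + corin replicate 1, was not above the 1.55% of T cells in its library. The ranges of the groups overlapped in all myeloid cells and in both macrophage states, where replicate 3 was lowest of the αPD-1 libraries and highest of the αPD-1 + corin libraries. In DCs the shares did not overlap, at 0 to 0.408% against 0.773% to 0.817% (exact permutation p = 0.1, and 0.8 after adjustment). They came from 1, 0 and 1 cells against 5, 3 and 3 cells, and lay below T cells in each αPD-1 + corin library.

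Slc7a2, the arginine transporter gene, was highest in Mmp12 macrophages of every library, at 108, 67.0 and 59.2 CPM in the αPD-1 libraries and 43.3, 41.6 and 143 CPM in the αPD-1 + corin libraries. Within each group this range lay above that of other C1q macrophages, the next of the named states. The unnamed clusters together averaged 24.7 CPM in the αPD-1 + corin libraries and reached 54.1 CPM. Other C1q macrophages held 21.4, 19.6 and 19.0 CPM against 9.78, 21.1 and 35.9 CPM. T cells held 1.81, 4.58 and 4.37 CPM against 7.87, 12.5 and 7.03 CPM, so that the 9.78 CPM of αPD-1 + corin replicate 1 lay within their range. As for Nos2, replicate 3 of the combination had the highest value in both states. The log2 fold change in Mmp12 macrophages was -0.22 (SE 0.48, edgeR adjusted p = 0.922), and ran from -0.91 to 0.32 over 17 alternatives. It was 0.22 in other C1q macrophages (SE 0.37), 1.29 in DCs (SE 1.00) and 0.19 in all myeloid cells (SE 0.42). None of these passed (edgeR adjusted p = 0.892, 0.701 and 0.850). In monocytes, neutrophils, Ppbp and Lyve1 macrophages, where Slc7a2 was too low to test, no library held more than 54.7 CPM, and that value came from 5 UMIs. The difference of the Slc7a2 effect passed for none of 21 pairs of states (smallest edgeR adjusted p = 0.252), with 4 at an unadjusted p under 0.05.

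Odc1, at the start of polyamine synthesis, was found in every state. Over all myeloid cells it was at 189.6, 154 and 151 CPM in the αPD-1 libraries and 151, 172 and 177 CPM in the αPD-1 + corin libraries. Mmp12 macrophages had the highest mean in both groups, 316 ± 106 and 257 ± 57.0 CPM (SD, n = 3 each), and Lyve1 macrophages the lowest, 53.0 ± 21.0 and 55.5 ± 43.4 CPM. Odc1 was not particular to myeloid cells, since NK cells held 312 ± 22.5 and 429 ± 69.6 CPM. In DCs it was at 178, 138 and 143 CPM against 226, 187 and 215 CPM, without overlap between the groups, as for 4.51% of all genes tested in DCs that lay higher, and the change of 0.52 on the log2 scale, with an SE of 0.14, did not pass (edgeR adjusted p = 0.213). The clusters joined as DCs differed, and neither was tested alone. In the larger, led by Cst3, Odc1 was at 193, 132 and 140 CPM against 227, 164 and 209 CPM, with overlap. In the smaller, led by Siglech, Odc1 was at 124, 154 and 159 CPM against 224, 250 and 244 CPM, without overlap. Odc1 was also higher without overlap in T cells (179 to 244 against 297 to 304 CPM) and NK cells (286 to 327 against 381 to 509 CPM), which were not tested. In NK cells 5.05% of 8428 genes of at least 10 CPM lay higher in this way, and in T cells the share is that given with Nos2. A UMI of Odc1 was found in 14.7%, 13.8% and 9.96% of αPD-1 DCs and in 18.8%, 15.7% and 17.2% of αPD-1 + corin DCs after thinning (exact permutation p = 0.1, the smallest possible, and 0.8 after adjustment over 8 sets of cells). With no filter on low counts Odc1 passed in DCs (0.55, edgeR adjusted p = 0.0173).

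Hmox1 was spread over the macrophage states and was the only one of the 4 genes that passed in a state in the test as set out. In monocytes it was at 482, 555 and 359 CPM in the αPD-1 libraries and at 188, 249 and 227 CPM in the αPD-1 + corin libraries. The groups did not overlap, and Hmox1 fell by 1.07 (log2, SE 0.17), with an edgeR adjusted p of 0.00842. Of the 4 genes 2 could be tested in monocytes, where 1.17% of 7440 genes were called. The call held in 17 of 19 alternatives, and was lost without αPD-1 replicate 1 (edgeR adjusted p = 0.0622) or αPD-1 replicate 2 (0.0681), with log2 fold changes between -1.27 and -0.91. Among the 17, giving the unnamed clusters a state left the monocytes unchanged and repeats the same fit, so that it could not have moved the call. In cells thinned to 1000 UMIs, a UMI of Hmox1 was found in 31.0%, 25.1% and 23.2% of αPD-1 monocytes and in 18.3%, 15.6% and 15.7% of αPD-1 + corin monocytes (exact permutation p = 0.1, the smallest possible, and 0.8 after adjustment over 8 sets of cells). Cells thinned alike gave 1.67% to 3.13% in NK cells, at median depths of 1753 to 2802 UMIs against 2896 to 4334 UMIs in monocytes. B cells gave 6.49%, 4.24% and 4.21% in the αPD-1 libraries and 9.84%, 3.33% and 0 in the αPD-1 + corin libraries, the latter from 21 to 61 cells. T cells gave 6.30%, 5.29% and 4.49% against 19.4%, 7.02% and 7.29%, at median depths of 2001 to 5867 UMIs. The monocyte share of αPD-1 + corin replicate 1 was thus not above that of T cells in its library, whereas in the other 5 libraries the monocyte share was above those of all 3 lymphocyte types.

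Markers of other types were read beside this fall. The 12 monocyte markers summed to between 10674 and 11786 CPM in αPD-1 monocytes and between 9713 and 11364 CPM in αPD-1 + corin monocytes. The 12 neutrophil markers summed to 367 to 514 CPM against 570 to 939 CPM, the 11 Lyve1 macrophage markers to 880.3 to 907 CPM against 1034 to 1854 CPM, and the 11 other C1q macrophage markers to 1156 to 1329 CPM against 1269 to 2514 CPM. These lists belong to states in which Hmox1 was higher than in monocytes in the αPD-1 + corin libraries. Sums of Ppbp macrophage, Mmp12 macrophage and DC markers are not given here. Hmox1 in DCs was lower than in monocytes (103 against 221 CPM, means of the αPD-1 + corin libraries). T cell and melanoma marker sums overlapped between the groups, at 25.2 to 85.4 CPM and 107 to 185 CPM over all 6 libraries. The median share of mitochondrial UMIs was 1.65% to 2.02% against 1.53% to 2.14%. Hmox1 in T cells was at 144, 132 and 102 CPM in the αPD-1 libraries and at 403, 233 and 96.2 CPM in the αPD-1 + corin libraries, so that it was above the monocyte level in αPD-1 + corin replicate 1. The part of these differences in the result was not tested.

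The other states gave no call for Hmox1 in the test as set out. Mmp12 macrophages held 3536, 3127 and 973 CPM in the αPD-1 libraries and 2379.7, 1158 and 651 CPM in the αPD-1 + corin libraries, with overlap and a change of -0.89 in log2 units (SE 0.50, edgeR adjusted p = 0.570). Over 17 alternatives this change ran from -1.48 to -0.090, and it passed in 1, with no filter on low counts (edgeR adjusted p = 0.0011). Lyve1 macrophages held 1352, 3349.9 and 657 CPM against 1949, 2377 and 866 CPM, and Ppbp macrophages 1502, 1164 and 1085 CPM against 1137, 1044 and 699.8 CPM. Other C1q macrophages (620.1 to 1359 CPM over the 6 libraries) and neutrophils (312 to 736 CPM) followed, and DCs were lowest with 68.4 to 159 CPM, below the range of monocytes in both groups. Within each treatment, replicate 3 had the least Hmox1 in Mmp12, Lyve1 and other C1q macrophages. The difference of the Hmox1 effect between states did not pass for any of 21 pairs (5 with an unadjusted p under 0.05), and the smallest adjusted p was that of neutrophils against Mmp12 macrophages (1.42, SE 0.52, edgeR adjusted p = 0.182). Without αPD-1 + corin replicate 3, 1 pair passed, neutrophils against monocytes (2.14, SE 0.57, edgeR adjusted p = 0.0325).

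**Figure D3:**
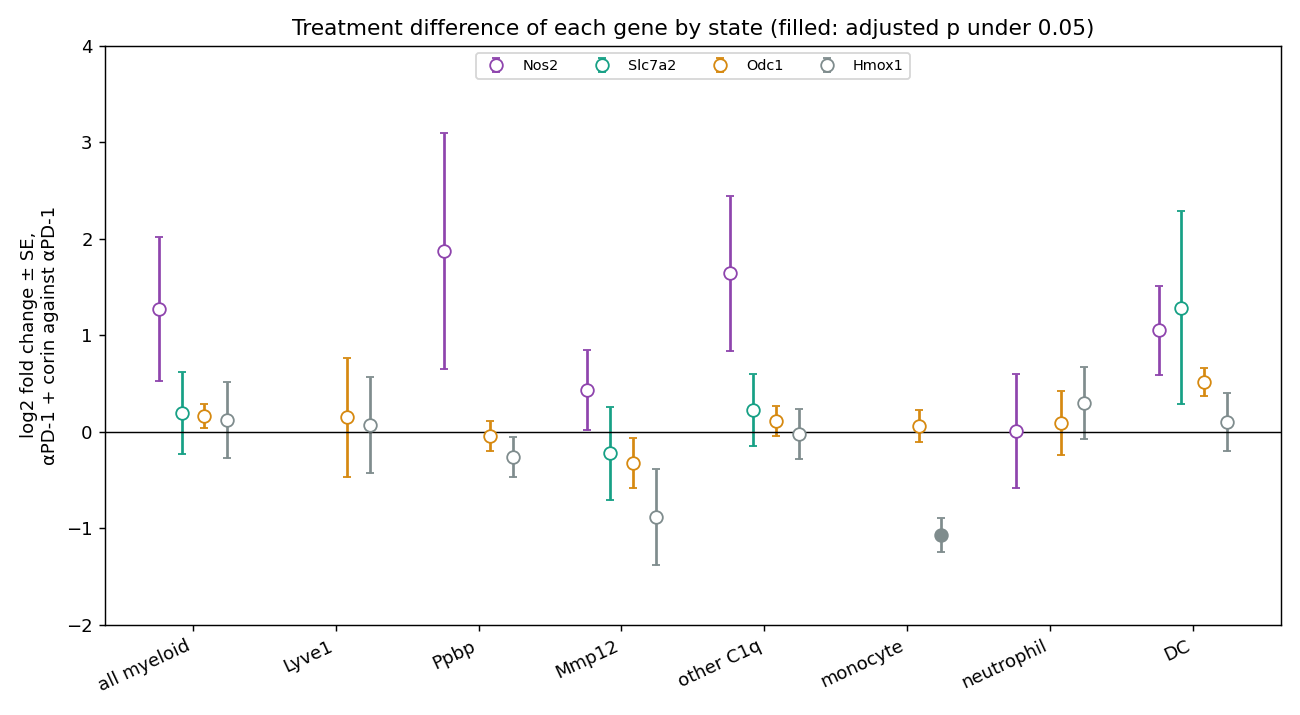
Log2 fold change of αPD-1 + corin against αPD-1 (y axis, with the SE as error bars) for each gene that could be tested in all myeloid cells and in each state. Filled points have an edgeR adjusted p under 0.05, and only Hmox1 in monocytes (-1.07) is filled.

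Of the 28 pairs of a gene and a state, 22 could be tested and 1 was called. The share of all tested genes that was called was 0.891% in Lyve1 macrophages, 1.02% in Ppbp macrophages, 0.112% in Mmp12 macrophages, 0.0298% in other C1q macrophages, 1.14% in neutrophils and 0.37% in DCs, and 0.063% of 12698 genes in all myeloid cells. A single call is too few to read a share for these genes against these values, and a missing call does not show equal levels.

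Genes that act in the same pathways were read from 6 lists with 124 entries in all, chosen with earlier results of these data known. Over 7 states and all myeloid cells together, 717 tests of list genes gave 2 calls, both lower in the αPD-1 + corin libraries. In monocytes Sat1, which acetylates spermidine and spermine for polyamine breakdown, fell by 0.90 (log2, SE 0.17, adjusted p = 0.0177 in edgeR), from 1122 ± 119 CPM (SD, n = 3) to 591 ± 150 CPM, the same state in which Hmox1 fell. In neutrophils, Lyve1 macrophages and other C1q macrophages, whose marker sums were higher in αPD-1 + corin monocytes, Sat1 averaged 789, 538 and 538 CPM in the αPD-1 + corin libraries, below its level in αPD-1 monocytes, and the part of this in the fall was not tested. In DCs Gclc, the catalytic subunit of glutamate-cysteine ligase in glutathione synthesis, fell by 0.95 (SE 0.14, edgeR adjusted p = 0.0203), from 62.0 ± 2.82 to 30.8 ± 0.919 CPM.

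The heme and iron list held 28 other genes, 21 of them tested in monocytes, and none passed. The ferritin genes Fth1 and Ftl1, which store iron, had log2 fold changes of -0.0036 and 0.018 in monocytes (edgeR adjusted p = 0.996 and 0.957), and Hmox2, the constitutive heme oxygenase, 0.18 (edgeR adjusted p = 0.726). Over all myeloid cells, whose make-up differed, Fth1 was at 7194 to 8838 CPM against 10507 to 14981 CPM (0.76, edgeR adjusted p = 0.179). Without overlap between the groups, 10.2% of all genes tested in monocytes lay higher with corin and 12.1% lay lower. Blvrb and Blvra, genes of biliverdin reductases, were among those that lay higher, at 0.65 and 0.49 without passing (edgeR adjusted p = 0.0956 and 0.235). In all 3 of the 21 heme and iron genes lay higher without overlap, with Lrp1, a receptor that takes up heme bound to hemopexin (0.58, edgeR adjusted p = 0.113), and 1 lay lower, the metal ion transporter Slc11a1 (-0.35, edgeR adjusted p = 0.208). Of 8 tested NRF2 targets other than Hmox1, 5 lay higher without overlap, Slc7a11, the cystine transporter (log2 fold change 1.04, edgeR adjusted p = 0.105), Gclm (0.61, 0.186), G6pdx (0.31, 0.326), Prdx1 (0.29, 0.214) and Pgd (0.26, 0.424). The other 3, Gclc (-0.63, 0.419), Taldo1 (-0.20, 0.447) and Txnrd1 (-0.16, 0.785), had lower values with overlap, and none of the 8 passed. Some of these genes were high in the states whose marker sums were higher in αPD-1 + corin monocytes, with Slc7a11 at 584 CPM in neutrophils against 49.5 CPM in monocytes, and Blvrb at 459.5 CPM in Lyve1 and 322 CPM in other C1q macrophages against 115 CPM (means of the αPD-1 + corin libraries), and the part of this was not tested. The median log2 fold change was 0.15 over the heme and iron list, 0.28 over the NRF2 list and 0.13 over the arginine and polyamine list. It was 0.56 over the hypoxia and glycolysis list, where 4 of 13 genes lay higher and 1 lower without overlap, 0.11 over the nitric oxide list and 0.066 over the list of regulators, against 0.0042 over all genes tested in monocytes.

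On the arginine side, Ass1, which rebuilds arginine from citrulline, had a log2 fold change of 0.012 in monocytes (edgeR adjusted p = 0.992). The arginine and polyamine list had 29 genes, with 22 tested in monocytes, where 5 lay higher and 3 lower without overlap, beside the 10.2% and 12.1% of all genes tested there. The nitric oxide list had 18 genes, of which 13 were tested in all myeloid cells and none passed. Gch1, which makes the tetrahydrobiopterin that Nos2 needs, stood at -0.26 in monocytes on the same scale (SE 0.15, edgeR adjusted p = 0.435).

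Pairs of these genes were then read in the same cells, thinned to 1000 UMIs, against the product of the 2 single shares summed over libraries. In other C1q macrophages Nos2 and Hmox1 were found together in 118 cells against 87.2 from the products (ratio 1.35, above the product in 6 of 6 libraries). In the same cells Nos2 and Slc7a2 shared 19 cells against 4.39 (4.32, 4 of 6), and Slc7a2 and Hmox1 31 against 21.9 (1.41, 5 of 6). Odc1 lay near the product with Nos2 (34 cells against 35.4, ratio 0.96) and with Hmox1 (206 against 200.4, ratio 1.03). In Mmp12 macrophages Nos2 and Slc7a2 shared 14 cells against 5.44 (2.57, 5 of 6 libraries), whereas Nos2 and Hmox1 shared 71 against 71.1 (1.00) and Slc7a2 and Odc1 5 against 9.44 (0.53, above in 2 of 6). In neutrophils Nos2 and Hmox1 shared 37 cells against 31.1 (1.19, 5 of 6). Depth is equal in these cells by construction, and the part of remaining doublets was not tested.

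The transcripts were unevenly spread among cells. In Mmp12 macrophages, cells with a Nos2 UMI held a median of 2 to 3 Nos2 UMIs in every library, with up to 23 in 1 cell, and in other C1q macrophages single cells held up to 45. Cells with an Hmox1 UMI held a median of 8, 7 and 3 Hmox1 UMIs among Mmp12 macrophages of the αPD-1 libraries and of 3, 3 and 2 in the αPD-1 + corin libraries, and 1 cell held 203. Among all myeloid cells, the tenth of cells with most Hmox1 held 58.2% to 70.9% of its UMIs over the 6 libraries.

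Over 42 sums of a library and a state, the genes whose log2(CPM + 1) followed each of the 4 most closely among 10440 genes were named by Pearson's r, as a description over sums that share libraries and depth. For Nos2 these were Il1a (0.81), Inhba (0.80) and Basp1 (0.79). For Slc7a2 they were Flrt2 (0.83), Kif1c (0.82) and Mgarp (0.82), for Odc1 Fbxo11 (0.87), Alcam (0.87) and Skil (0.87), and for Hmox1 Ftl1 (0.96), Ninj1 (0.90) and Plin2 (0.89). Among the 4 genes themselves, Nos2 and Slc7a2 had the highest r, 0.75, and Odc1 and Hmox1 the lowest, -0.23.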

How the data were processed

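CD45+ cells were profiled in 6 libraries (3 αPD-1, 3 αPD-1 + corin) with 10x 5′ single-cell RNA-Seq. The authors deposited, for each library, raw UMI counts per gene and barcode on GRCm39. The submitters' processing notes name Cell Ranger 8.0 and Seurat 5.0.11. No cell annotation was used, so that cell states were rebuilt here and can differ from those of the study.

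From these counts, barcodes outside 600 to 4000 detected genes or above 10% mitochondrial UMIs were dropped. Scrublet (scanpy 1.11.5, Python 3.11.15) scored doublets, and since its own threshold marked 0 barcodes, the top-scoring share, 0.4% per 1000 barcodes, was removed (2002 of all barcodes, 1202 of them within the filters). Cells were normalised with SCTransform (sctransform 0.4.2, Seurat 5.3.0, R 4.3.3) and clustered on 20 principal components at resolution 0.8. The genes of the set and their pathway lists were left out of the components. State markers outside those lists were not left out, so that markers that name a state could also shape its cluster. A cluster was named from at least 3 detected markers, with at least 2 (myeloid) or 1 (other types, a limit set after seeing the data) among its 10 leading genes. UMIs were summed per library and state, and tested with edgeR 4.0.16 (quasi-likelihood, TMM, filterByExpr, Benjamini-Hochberg adjustment over all genes tested, threshold 0.05). States needed at least 10 cells per sum. Shares of cells were taken after thinning to 1000 UMIs and compared with two-sided exact permutation tests (scipy 1.17.1). A count of 0 allows up to 3 UMIs, which covers counting error only.

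The alternatives were RLE size factors, DESeq2 1.42.0, no filter on low counts, a replicate block, each library left out, other cell filters and resolutions, other thinning depths, and members kept in the clustering. Giving the unnamed clusters a state was added after seeing the data. The rule for named genes took the members, called list genes whose higher group reached 10 CPM (up to 5 rises and 5 falls per state), and the 3 genes with the highest r to each member. Other list genes, such as Fth1, Blvrb and Gch1, were chosen after their values were seen. The members and lists were chosen with earlier results of these data known. Of the set, 1 gene, and of the lists, 1 gene, are not reported here. No promoter motif search was run, and no sequence is shown. The edgeR script was tested on simulated counts.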

Additional observations from a re-analysis of the deposited data

Results flagged for a closer look

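Nos2 and Hmox1 also appeared in cells that no comparison used, the fibroblast cluster that came through the CD45 selection. Nos2 was at 153, 258 and 203 CPM in fibroblasts of the αPD-1 + corin libraries, with a mean of 204 CPM, and at 55.0, 40.7 and 11.4 CPM in the αPD-1 libraries. Hmox1 was at 218, 505 and 262 CPM, with a mean of 329 CPM, against 163, 120 and 137 CPM. The values of the groups did not overlap for either gene, as for 10.9% of the 8524 genes of at least 10 CPM in these cells that lay higher. The αPD-1 libraries held 63, 39 and 48 fibroblasts and the αPD-1 + corin libraries 611, 79 and 148, and the differences were not tested. These values are given because cells of at least 30 per library were read, a minimum lowered from 40 after the values were seen.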

How the results depend on the processing

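For 10 log2 fold changes of the 4 genes, the alternatives gave 166 values, of which 146 held both sign and call, 5 newly passed, 2 no longer passed and 13 changed sign. The cause was not tested, except that leaving out a library or a filter changes what is fitted. Giving the unnamed clusters a state changed only other C1q macrophages, and in the other states its values among the 146 repeat the main fit. Leaving out 1 library at a time gave 0 to 1 of the genes called in monocytes and 0 to 1 differences between states. It gave log2 fold changes of Nos2 from -0.013 to 1.72 in all myeloid cells, from -0.018 to 5.17 in Ppbp macrophages, from -0.27 to 0.46 in neutrophils and from -0.27 to 2.20 in other C1q macrophages, and in Mmp12 macrophages from -0.15 to 0.78 for Nos2 and from -0.91 to 0.12 for Slc7a2. The difference in the share of cells (percentage points, αPD-1 + corin minus αPD-1) ran from -0.134 to 3.80 for Nos2 in all myeloid cells and from -1.23 to 2.08 for Mmp12 macrophages among myeloid cells. Without a filter on low counts, 1 gene was called in Ppbp, Mmp12 and other C1q macrophages, and 2 in monocytes and DCs. In monocytes 2 were called with no upper limit on genes, at most 5% mitochondrial UMIs, members kept in the clustering, and resolutions 0.4 and 1.2. With no upper limit on genes, Slc7a2 in Mmp12 macrophages stood at 0.32 and the share of Mmp12 macrophages at -8.82 points. Without cells holding T cell, B cell or melanoma UMIs, Slc7a2 in Mmp12 macrophages stood at 0.0047. Nos2 in neutrophils stood at -0.24 at 5% mitochondrial UMIs, -0.080 without doublet removal and -0.0094 at resolution 1.2. The share of Mmp12 macrophages differed by -0.770 at resolution 1.2, that of other C1q macrophages by 0.112 at 5% mitochondrial UMIs, and that of DCs by 0.0350 with at least 200 genes.

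Counts of genes called moved more. In all myeloid cells 8 were called, against 327 with DESeq2, 273 unfiltered, 800 without αPD-1 + corin replicate 3 and 0 with a replicate block. In monocytes 87 were called, against 114, 429, 442 and 43. In the other 6 states 3 to 85 were called, against 21 to 146, 166 to 769, 97 to 1137 and 4 to 113, and 0 to 23 with 1 αPD-1 library left out. Replicate numbers did not pair the libraries (r = -0.042, -0.24 and -0.14 for the same numbers), and under the replicate block Hmox1 in monocytes had a log2 fold change of -1.04 (edgeR adjusted p = 0.0253). No Ppbp state was found with no upper limit on genes, at least 200 genes, no doublet removal or resolution 0.4, and no Mmp12 state at 5% mitochondrial UMIs or resolution 0.4, so that these fits have no value. Few cells limit the αPD-1 values of Lyve1 macrophages (13 to 24 cells) and neutrophils (17 to 22 cells).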
